A study of Homo sapiens with 12 samples.

Results

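Cyclin E, E2F and RB genes set the passage of a cell out of G1 and into S phase. The 10 genes described here are the cyclin E genes CCNE1 and CCNE2, the phosphatase gene CDC25A, the activating E2F genes E2F1, E2F2 and E2F3, the atypical E2F genes E2F7 and E2F8, and the RB family genes RB1 and RBL1. They were taken by name from a table of 26475 genes, and all 10 were among the 15443 genes with enough counts to be tested. In this pathway cyclin E activates the kinase CDK2, CDC25A removes the phosphates that hold CDK2 inactive, and cyclin-dependent kinases phosphorylate RB proteins so that these release E2F factors. Free activating E2Fs then turn on replication genes and also several genes of the pathway itself, among them E2F1, CCNE1, CCNE2, CDC25A and RBL1, while E2F7 and E2F8 are E2F targets that repress the same genes later in S phase. In melanoma the pathway is often entered with a lost CDKN2A brake on the cyclin D kinases and a BRAF mutation that drives cyclin D1.

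RNA was measured in A375, a human melanoma cell line with a mutant BRAF gene. Cells received the combination of 1 µM GSK343 and 1 µM XL413, 1 µM XL413 alone, 1 µM GSK343 alone, or the solvent DMSO, each for 24 h. XL413 inhibits CDC7, the kinase that with DBF4 starts DNA replication at licensed origins, and GSK343 inhibits EZH2, the histone methyltransferase of Polycomb repressive complex 2. There were 3 libraries in each of the 4 groups, 12 in all, made from poly-A RNA of a single cell line, so p-values measure the spread between these libraries.

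Total expected counts, which are read counts per gene estimated by RSEM, lay between 31553205 and 39079931 per library. The 10 genes had between 387 counts, for E2F8 in GSK343+XL413 replicate 2, and 3075 counts, for CDC25A in the same library. Levels are given as CPM, counts scaled to the effective size of each library. Of the 7 melanocyte lineage genes examined, MITF, SOX10 and S100B were above 20 CPM in every library, PMEL, MLANA and DCT had medians under 1 CPM, and TYR was at 0 in all 12 libraries. The defining leukocyte genes PTPRC and CD3E were at or near 0, although the summed level of 6 leukocyte markers, nearly all of it from LYZ and LAPTM5, was 9.88 to 11.1 CPM with GSK343+XL413, 9.23 to 10.6 with XL413, 8.51 to 8.80 with GSK343 and 7.26 to 7.78 with DMSO. All 6 fibroblast markers had medians over 1 CPM, with summed levels of 208 to 220 CPM with GSK343+XL413, 223 to 268 with XL413, 145 to 227 with GSK343 and 207 to 261 with DMSO. The part of these markers in the results was not tested.

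One combination library, GSK343+XL413 replicate 2, was unlike the rest. On the log2 scale the SD of its deviation from its own group over 11294 genes was 0.267, against 0.0902 to 0.166 in the other 11 libraries. Across 10828 genes the deviation was lower for longer transcripts, with a rank correlation of −0.672 (Spearman), against −0.487 to 0.598 in the others, over genes that are not independent replicates. Each deviation was taken from the mean of the other 2 libraries in a group. GSK343+XL413 replicates 1 and 3, at 0.536 and 0.598 with SDs of 0.148 and 0.166, were thus measured partly against replicate 2. Among the 10 genes replicate 2 was highest above its group for E2F1, by 0.185 on the log2 scale with a longest transcript of 2503 nt. It was farthest below its group for RBL1, by −0.344 with 5684 nt. Results of the 10 genes are therefore given with all 12 libraries and, where this changes a call, with the 11 others. For the gene lists further below, not every call that changed without this library is named.

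Of the 8 genes with a promoter window that was searched, 4 held 1 and the same exact E2F-type sequence, and these 4 windows are shown. Windows of 300 bases, from 250 before to 50 after a start site, came from RefSeq on GRCh38.p14 and were matched by gene symbol. Of the 10 genes, 8 had 9 windows, and CCNE2 and E2F8 are named only and were not searched. Both strands were searched for TTTGGCGC, TTTGCCGC, TTTCGCGC and TTTCCCGC, which do not contain each other. TTTGGCGC was on the sense strand of E2F1, E2F2, CDC25A and RBL1, beginning 20, 42, 44 and 16 bases before the start site. Among 35116 such windows, 0.652% held TTTGGCGC on either strand and 3.31% held any of the 4 sequences. Capitals below mark every match, and each window is read 5′ to 3′ on the minus strand, at chr20:33686336-33686635 for E2F1, chr1:23531184-23531483 for E2F2, chr3:48188368-48188667 for CDC25A and chr20:37095948-37096247 for RBL1.
E2F1: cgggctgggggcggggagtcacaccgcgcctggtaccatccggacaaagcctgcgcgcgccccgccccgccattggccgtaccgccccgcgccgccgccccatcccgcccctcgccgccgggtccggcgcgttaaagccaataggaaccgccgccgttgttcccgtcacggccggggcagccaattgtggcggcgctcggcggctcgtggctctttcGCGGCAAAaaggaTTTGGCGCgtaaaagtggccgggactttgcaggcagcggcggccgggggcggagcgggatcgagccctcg
E2F2: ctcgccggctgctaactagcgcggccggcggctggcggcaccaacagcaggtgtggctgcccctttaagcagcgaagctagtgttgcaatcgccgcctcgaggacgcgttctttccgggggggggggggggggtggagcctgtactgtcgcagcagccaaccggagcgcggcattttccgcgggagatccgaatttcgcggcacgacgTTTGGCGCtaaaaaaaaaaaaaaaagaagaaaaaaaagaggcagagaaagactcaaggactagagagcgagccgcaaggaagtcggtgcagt
CDC25A: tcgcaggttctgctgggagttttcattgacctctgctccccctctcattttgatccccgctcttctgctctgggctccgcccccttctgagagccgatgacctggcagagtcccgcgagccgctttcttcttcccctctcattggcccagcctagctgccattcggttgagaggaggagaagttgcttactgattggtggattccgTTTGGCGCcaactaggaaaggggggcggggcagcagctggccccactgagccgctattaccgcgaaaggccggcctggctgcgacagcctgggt
RBL1: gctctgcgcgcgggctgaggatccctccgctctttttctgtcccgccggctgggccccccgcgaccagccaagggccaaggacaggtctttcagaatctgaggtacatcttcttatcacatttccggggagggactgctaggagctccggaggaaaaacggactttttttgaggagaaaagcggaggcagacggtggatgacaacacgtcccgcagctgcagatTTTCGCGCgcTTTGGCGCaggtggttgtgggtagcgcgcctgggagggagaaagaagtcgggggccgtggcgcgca

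The E2F1 window also held TTTGCCGC on the opposite strand, 33 bases before the start site, and the RBL1 window TTTCGCGC, 26 bases before it. In 1 of the 2 E2F3 windows TTTCCCGC lay on the opposite strand, 53 bases before the start site. None of the 4 sequences was in the windows of CCNE1, E2F7 and RB1 or in the second window of E2F3, and the start site of the RB1 window lies inside the gene, 172724 bases from its annotated first base. A match describes letters in a window and not a bound site. The 4 genes with TTTGGCGC did not all pass a test in any 1 comparison below.

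In DMSO-treated cells E2F1 and CDC25A had the highest levels of the 10 genes. Levels of different genes were set side by side per kilobase of the longest annotated transcript (CPM per kb), which need not be the one expressed. The order of genes with close levels can depend on this choice. E2F1 was highest at 27.3 ± 1.02 and E2F2 lowest at 2.996 ± 0.174 CPM per kb (SD, n = 3). CDC25A followed E2F1 at 22.3 ± 0.389, and RB1 had 12.7 ± 0.443. CCNE2 at 10.6 and E2F7 at 10.3 overlapped between libraries, as did CCNE1 at 8.87 and RBL1 at 8.44, while E2F3 at 9.63 lay between these pairs and overlapped neither of its neighbours. E2F8 had 3.84 CPM per kb. The first 3 places, E2F1, CDC25A and RB1, and the last 2, E2F8 and E2F2, were the same in all 4 groups, and each of these neighbours was separated in every group.

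**Figure D1:**
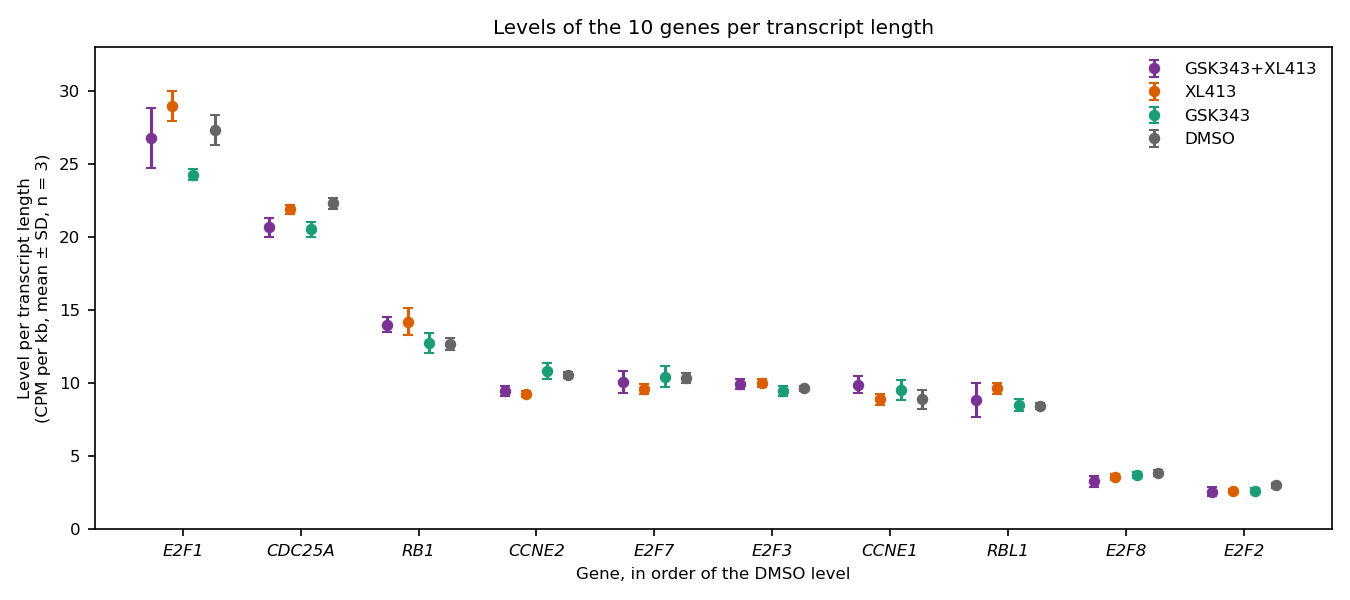
Level of each gene in CPM per kilobase of its longest transcript (vertical axis), as the mean of 3 libraries with bars of 1 SD, for GSK343+XL413, XL413, GSK343 and DMSO from left to right within a gene. E2F1 and CDC25A stand above the rest in every group, E2F8 and E2F2 below, and 5 genes lie between 8 and 11 CPM per kb.

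The order among the middle genes changed between groups, with levels that overlapped. CCNE2 was 7th of 10 with GSK343+XL413 at 9.46 CPM per kb, 7th with XL413 at 9.25, 4th with GSK343 at 10.8 and 4th with DMSO at 10.6. CCNE1 was 6th, 8th, 6th and 7th in the same 4 groups, at 9.90, 8.90, 9.51 and 8.87 CPM per kb. All differences described next were small, between −0.23 and 0.19 on the log2 scale for every member against DMSO with all 12 libraries.

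Each compound was compared with its absence in 2 ways. The averaged effect sets the 6 libraries that received a compound against the 6 that did not, as the mean of the difference with and without the other compound. The comparisons of single groups each set 3 libraries against 3, and those against DMSO share the same 3 control libraries. Differences are log2 fold changes with their standard error (SE) from edgeR's quasi-likelihood test, fitted to all tested genes. Genes with a Benjamini-Hochberg adjusted p under 0.05 were called. For the averaged XL413 effect 2 of the 10 genes were called, CCNE2 lower and RB1 higher, against 9.12% of all tested genes. For the averaged GSK343 effect 2 were called, E2F1 and CDC25A, both lower, against 6.55% of all tested genes.

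**Figure D2:**
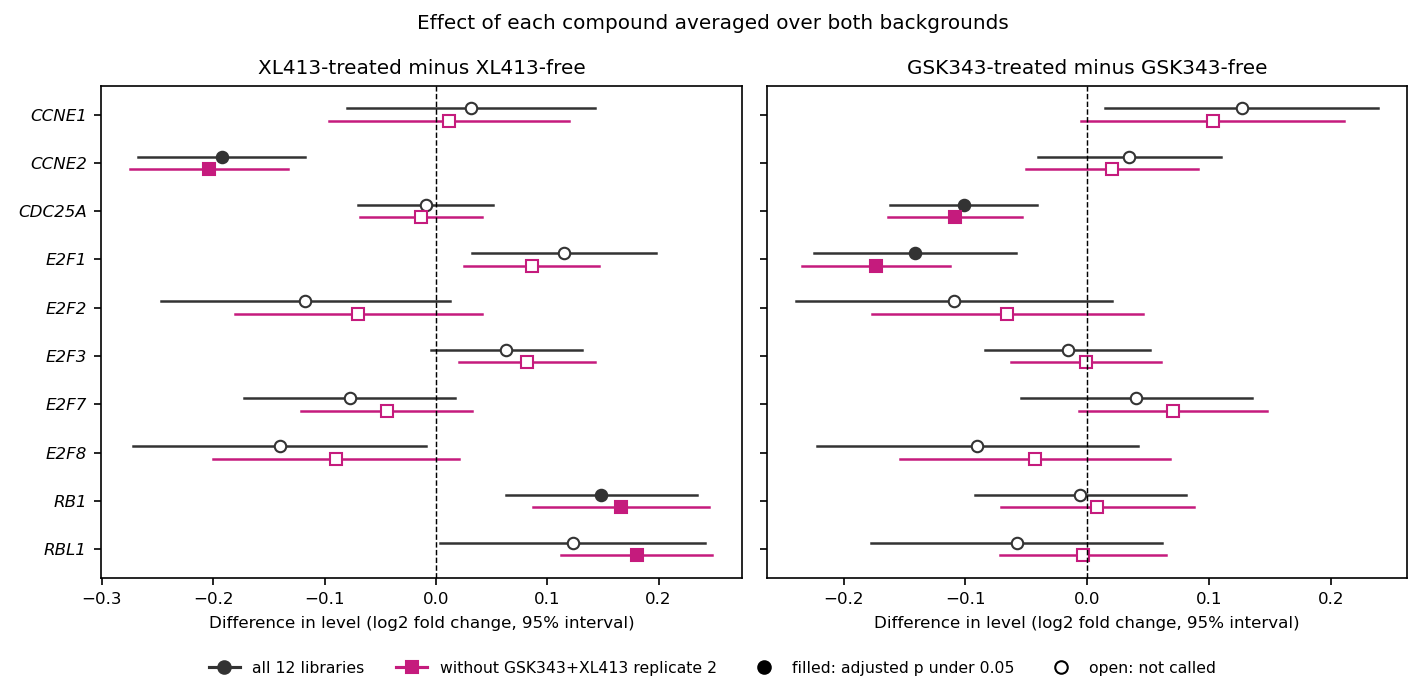
Averaged effect of XL413 (left) and of GSK343 (right) on each gene, as the log2 fold change (horizontal axis) with its 95% interval, from all 12 libraries (circles) and without GSK343+XL413 replicate 2 (squares). Filled symbols had an adjusted p under 0.05. With XL413, CCNE2 is the filled symbol below 0 in both fits, RB1 the filled one above 0 in both and RBL1 filled only without that library, and with GSK343 the filled symbols are E2F1 and CDC25A, below 0.

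CCNE2, which encodes cyclin E2, was lower wherever XL413 was present. The gene lies on chromosome 8 in GENCODE 29 on GRCh38. Its level was 31.3, 32.8 and 30.4 CPM with GSK343+XL413 and 31.6, 30.2 and 30.6 with XL413, against 35.7, 34.4 and 38.01 with GSK343 and 34.9, 34.7 and 35.9 with DMSO. All 6 libraries with XL413 were below all 6 without it. Over all tested genes 2.01% were lower in this way and 2.18% were higher. The averaged XL413 effect was −0.19 ± 0.0348 (log2, SE), a change of −12.5%, with an adjusted p of 0.00763 by edgeR's quasi-likelihood test. The call held under all 17 alternatives of scaling, filter, test and left-out library, with adjusted p up to 0.0281. In RNA from whole cultures, a change in the share of cells in a phase and a change in RNA per cell cannot be told apart.

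Within the single comparisons CCNE2 fell with GSK343+XL413 against DMSO, by 0.16 ± 0.0491 (adjusted p 0.0485). That call was kept in 4 of 18 alternatives, which included leaving out GSK343+XL413 replicate 2 (adjusted p 0.0222). With XL413 alone against DMSO the difference was −0.19 ± 0.0493 (adjusted p 0.111), and without that library, which is in neither group, the difference was −0.18 with an adjusted p of 0.0280. Between GSK343+XL413 and GSK343 the difference was −0.19 ± 0.0490 (adjusted p 0.0740), with adjusted p 0.0337 without that library. GSK343 had no called effect on CCNE2, at 0.03 ± 0.0348 on average with a 95% interval of −0.04 to 0.11.

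CCNE1, which encodes cyclin E1 (chr19:29811898-29824308, plus strand), was not called in any comparison. It had 20.2, 21.5 and 19.0 CPM with GSK343+XL413, 19.1, 17.8 and 17.6 with XL413, 19.6, 20.8 and 17.9 with GSK343, and 16.8, 19.4 and 18.2 with DMSO. The combination libraries were on average highest, and GSK343+XL413 replicates 1 and 2 were above all XL413 and DMSO libraries, but all 4 groups overlapped. The averaged GSK343 effect was 0.13 ± 0.0518 (adjusted p 0.165), with a 95% interval of 0.01 to 0.24. The averaged XL413 effect was 0.03 ± 0.0518, with a 95% interval of −0.08 to 0.14. With GSK343+XL413 against DMSO the difference was 0.16 ± 0.0731 by edgeR's quasi-likelihood test (adjusted p 0.164, unadjusted p 0.0497). The per-kilobase ratio of CCNE2 to CCNE1 was 0.957 ± 0.0238 with GSK343+XL413, 1.04 ± 0.0235 with XL413, 1.145 ± 0.145 with GSK343 and 1.195 ± 0.0885 with DMSO (SD, n = 3). This ratio was chosen after the values were seen and was not tested.

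CDC25A (chr3:48157146-48188402, minus strand), whose product activates CDK2 and whose promoter is shown above, was lower wherever GSK343 was present. Its level was 75.2, 79.8 and 79.4 CPM with GSK343+XL413 and 75.4, 78.9 and 78.6 with GSK343, against 83.7, 83.3 and 81.4 with XL413 and 83.1, 84.1 and 86.0 with DMSO. All 6 libraries with GSK343 were below all 6 without it, as were 2.17% of all tested genes. The averaged GSK343 effect was −0.10 ± 0.0281, a change of −6.8%, with an adjusted p of 0.0478. It was called in 3 of 17 alternatives, RLE scaling, DESeq2 and without GSK343+XL413 replicate 2 (adjusted p 0.0124). The call was lost when any 1 of the other 11 libraries was left out, with upper quartile scaling and without the filter on low counts, and over all alternatives the adjusted p reached 0.130.

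Single comparisons gave CDC25A differences of −0.11 ± 0.0397 with GSK343+XL413 against DMSO (adjusted p 0.0797), −0.03 ± 0.0396 with XL413 against DMSO (adjusted p 0.809) and −0.12 ± 0.0397 with GSK343 against DMSO (adjusted p 0.179). Without GSK343+XL413 replicate 2 the first of these was −0.12 with an adjusted p of 0.0450. XL413 moved CDC25A by −0.01 ± 0.0281 on average, with a 95% interval of −0.07 to 0.05.

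**Figure D3:**
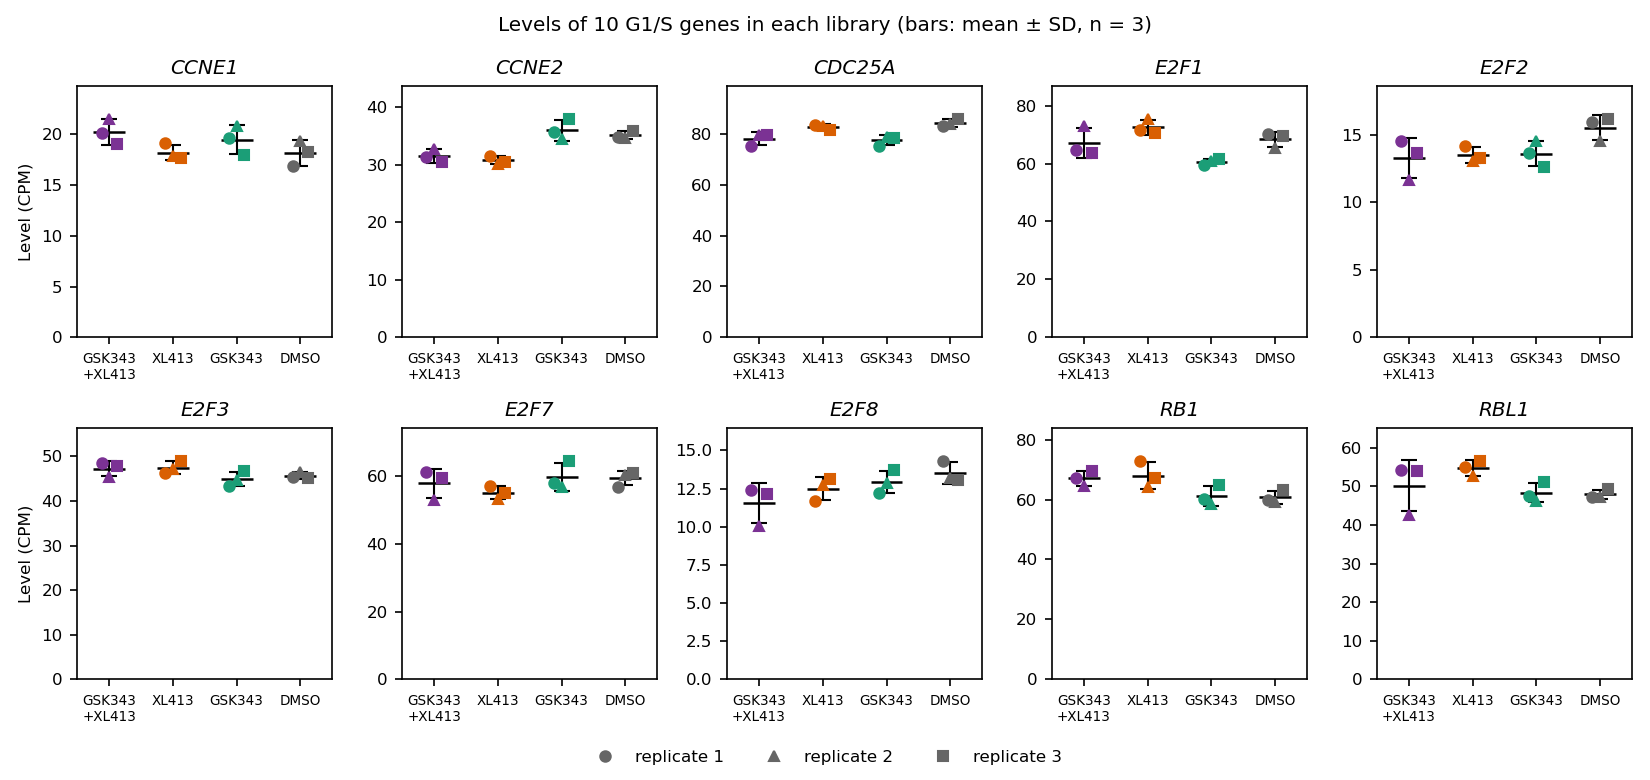
Level in CPM (vertical axis, from 0) of each of the 10 genes in every library, by group, with the mean of 3 libraries and bars of 1 SD. Symbols mark the replicate number. The CCNE2 libraries with XL413 lie at 30.2 to 32.8 CPM, all below the others, and the GSK343+XL413 replicate 2 library of RBL1 lies at 42.6 CPM, lowest of the 12.

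E2F1 (chr20:33675683-33686404, minus strand), the activator with the highest level of the members, was lowest with GSK343 alone. It had 64.7, 72.9 and 63.6 CPM with GSK343+XL413, 71.6, 75.4 and 70.5 with XL413, 59.6, 61.0 and 61.5 with GSK343, and 70.2, 65.4 and 69.4 with DMSO. The 3 GSK343 libraries were below all 9 others, and the 3 XL413 libraries were above all 3 DMSO libraries. Against the DMSO libraries alone, 14% of all tested genes were lower without overlap with GSK343, and 11.9% were higher with XL413. The share of genes below all 9 others was not counted. GSK343+XL413 replicate 2 was far above the other 2 libraries of its group. The averaged GSK343 effect was −0.14 ± 0.0385, a change of −9.34%, with an adjusted p of 0.0448.

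Without GSK343+XL413 replicate 2 the averaged GSK343 effect on E2F1 was −0.17 ± 0.0285 (adjusted p 0.00130), and all 5 remaining GSK343-treated libraries were below all 6 libraries without it, as were 3.2% of genes. In those 11 libraries 12.9% of tested genes were called for this effect, E2F1 and CDC25A among them. The call with all libraries was kept with RLE scaling and DESeq2 and lost with upper quartile scaling, without the filter and without any 1 of the other 11 libraries, and over all alternatives the adjusted p reached 0.110. The averaged XL413 effect on E2F1 was 0.12 ± 0.0385 (adjusted p 0.0757), which was called in 1 of 17 alternatives, without GSK343+XL413 replicate 3 (adjusted p 0.0432).

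With GSK343 against DMSO, E2F1 differed by −0.17 ± 0.0546 (adjusted p 0.166), and by −0.17 with an adjusted p of 0.0186 without GSK343+XL413 replicate 2. With GSK343+XL413 against XL413 the difference was −0.11 ± 0.0543 (adjusted p 0.355), and −0.18 with an adjusted p of 0.0461 without that library. The combination differed from DMSO by −0.03 ± 0.0544, with a 95% interval of −0.14 to 0.09.

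E2F2 (chr1:23506430-23531220, minus strand), another activator and the member with the lowest level, had its highest mean in DMSO-treated cells. Levels were 14.6, 11.7 and 13.7 CPM with GSK343+XL413, 14.2, 13.05 and 13.3 with XL413, 13.6, 14.5 and 12.7 with GSK343, and 15.9, 14.5 and 16.2 with DMSO. All 3 XL413 libraries were below all 3 DMSO libraries, whereas the other 2 treated groups overlapped DMSO. Differences from DMSO were −0.23 ± 0.0847 with the combination (adjusted p 0.0906), −0.20 ± 0.0848 with XL413 (adjusted p 0.317) and −0.19 ± 0.0845 with GSK343 (adjusted p 0.312), and these share the same controls. Its call in the first of these appeared in 1 of 18 alternatives, without GSK343+XL413 replicate 1 (adjusted p 0.0441). The interaction, the GSK343 effect with XL413 minus the effect without it, was 0.17 ± 0.120 (adjusted p 0.989) and 0.25 ± 0.104 without GSK343+XL413 replicate 2 (adjusted p 1, unadjusted p 0.0312).

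E2F3 (chr6:20401906-20493715, plus strand), the third activator, stayed within a narrow range. It had 48.5, 45.3 and 47.96 CPM with GSK343+XL413, 46.4, 47.2 and 49.0 with XL413, 43.4, 44.8 and 46.7 with GSK343, and 45.4, 46.5 and 45.2 with DMSO. All 4 groups overlapped. The averaged XL413 effect was 0.06 ± 0.0315 (adjusted p 0.213) and the averaged GSK343 effect −0.02 ± 0.0315, with a 95% interval of −0.08 to 0.05. The deposited counts are per gene, so transcripts from the 2 E2F3 promoters were not separated.

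The atypical E2F genes were called in no comparison. E2F7 (chr12:77021247-77065580, minus strand) had 61.2, 53.1 and 59.3 CPM with GSK343+XL413, 57.2, 53.3 and 54.9 with XL413, 58.1, 56.8 and 64.5 with GSK343, and 56.9, 60.3 and 60.9 with DMSO. Its averaged XL413 effect was −0.08 ± 0.0440 (adjusted p 0.274), with groups that overlapped. E2F8 (chr11:19224063-19241620, minus strand) had 12.4, 10.0 and 12.1 CPM with GSK343+XL413, 11.7, 12.7 and 13.1 with XL413, 12.2, 12.9 and 13.7 with GSK343, and 14.3, 13.2 and 13.04 with DMSO. The 3 combination libraries were below the 3 DMSO libraries, and replicate 2 was the lowest of all 12. E2F8 differed by −0.23 ± 0.0865 between the combination and DMSO (adjusted p 0.0915), and by −0.13 without that replicate (adjusted p 0.281).

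RB1 (chr13:48303726-48599436, plus strand), the retinoblastoma gene whose protein holds activating E2Fs inactive, was higher with XL413. Its level was 67.1, 64.6 and 69.5 CPM with GSK343+XL413 and 72.9, 64.1 and 67.0 with XL413, against 60.1, 58.5 and 64.7 with GSK343 and 59.7, 59.3 and 63.2 with DMSO. The libraries with and without XL413 overlapped, since GSK343 replicate 3 was above the replicate 2 libraries of both XL413-treated groups. The averaged XL413 effect was 0.15 ± 0.0399, a change of 10.9%, with an adjusted p of 0.0360.

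The RB1 call was kept in 8 of 17 alternatives, with adjusted p up to 0.0977. It was lost without 9 of the 12 libraries taken singly, namely each DMSO library, XL413 replicates 1 and 3, GSK343 replicates 1 and 2, and GSK343+XL413 replicates 1 and 3. With XL413 against DMSO the difference was 0.16 ± 0.0565 (adjusted p 0.225). With the combination against DMSO it was 0.14 ± 0.0565 (adjusted p 0.107), and 0.17 with an adjusted p of 0.0463 without GSK343+XL413 replicate 2. GSK343 moved RB1 by −0.01 ± 0.0399 on average, with a 95% interval of −0.09 to 0.08.

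RBL1 (chr20:36996349-37095995, minus strand) encodes p107, an RB relative that binds repressor E2Fs and is itself an E2F target, and its result turned on 1 library. Levels were 54.2, 42.6 and 53.9 CPM with GSK343+XL413 and 55.1, 52.6 and 56.6 with XL413, against 47.6, 46.3 and 51.04 with GSK343 and 47.3, 47.3 and 49.4 with DMSO. GSK343+XL413 replicate 2 was the lowest of all 12 libraries, and the other 5 libraries with XL413 were above all 6 without it. Over the 11 libraries 2.93% of genes were higher in this way. With all 12 libraries the averaged XL413 effect was 0.12 ± 0.0551 (adjusted p 0.171). Without GSK343+XL413 replicate 2 it was 0.18 ± 0.0319, a change of 13.3%, with an adjusted p of 0.00230.

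In those 11 libraries CCNE2, RB1 and RBL1 were called for the averaged XL413 effect, against 13.8% of tested genes. With XL413 against DMSO the RBL1 difference was 0.19 ± 0.0780 (adjusted p 0.300), and 0.20 with an adjusted p of 0.0168 without that combination library. All 3 XL413 libraries were above all 3 DMSO libraries in both cases. The combination differed from DMSO by 0.06 ± 0.0781 (adjusted p 0.618) with that library and by 0.18 ± 0.0476 (adjusted p 0.0221) without it. GSK343 alone gave 47.6, 46.3 and 51.04 CPM, a difference from DMSO of 0.01 ± 0.0782.

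**Figure D4:**
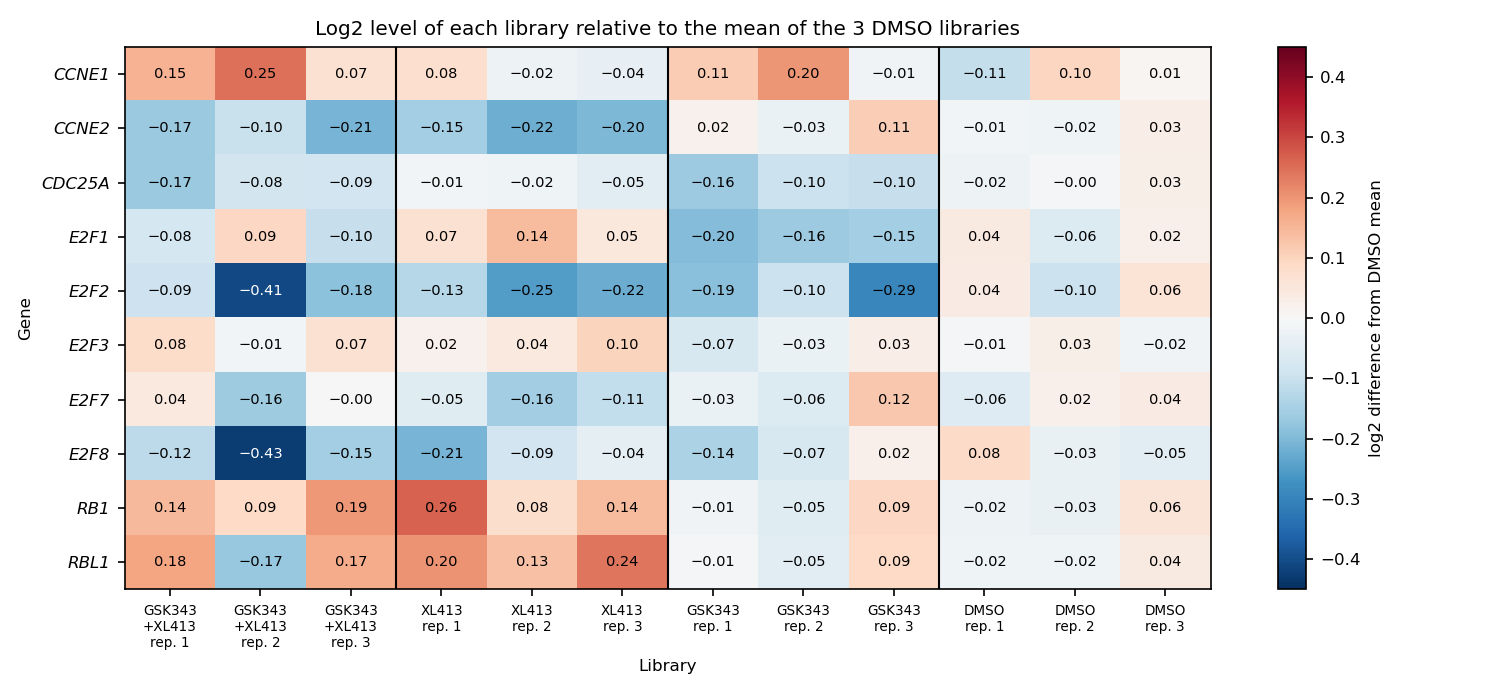
Log2 difference of each library (columns) from the mean of the 3 DMSO libraries for each gene (rows), red above and blue below, with the value in each cell. CCNE2 is negative in all 6 columns with XL413. CDC25A is negative in every treated column, at −0.08 or lower in the 6 with GSK343 and −0.05 to −0.01 with XL413 alone. GSK343+XL413 replicate 2 departs most from its group for E2F1, E2F2, E2F7, E2F8 and RBL1.

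With XL413 against DMSO 0 members were called by edgeR, against 0.427% of all tested genes, and 0 by DESeq2. At an unadjusted p under 0.05 there were 4, CCNE2, E2F2, RB1 and RBL1, against 13.7% of all tested genes. Groups did not overlap for 3 members that were higher, E2F1, RB1 and RBL1, where 11.9% of all tested genes were, and for 2 that were lower, CCNE2 and E2F2, where 16.2% were. With GSK343 against DMSO 0 were called by edgeR, against 1.17%, and 0 by DESeq2, with 3 at an unadjusted p under 0.05 (E2F1, E2F2 and CDC25A, against 14.3%). E2F1 and CDC25A were lower without overlap, as were 14% of all tested genes. Without GSK343+XL413 replicate 2 the calls were CCNE2 and RBL1 with XL413 (against 4.85% of tested genes) and E2F1 with GSK343 (against 6.15%).

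The combination called 1 member against DMSO, CCNE2, against 13.9% of all tested genes. At an unadjusted p under 0.05 there were 6 members, CCNE1, CCNE2, E2F2, E2F8, CDC25A and RB1, against 30.4%. Groups did not overlap for CCNE2, CDC25A and E2F8, which were lower, where 17.4% of all tested genes were, and for RB1, which was higher, where 16.3% were. Without GSK343+XL413 replicate 2 it called 4, CCNE2 and CDC25A lower and RB1 and RBL1 higher, against 15%. Against XL413 alone it called 0, against 0.784%, with 0 at an unadjusted p under 0.05 (15% of all tested genes) and 0 by DESeq2. Without GSK343+XL413 replicate 2 it called E2F1, against 1.62%. Against GSK343 alone it called 0, against 0.984%, with 3 at an unadjusted p under 0.05 (CCNE2, E2F1 and RB1, against 20.4%) and 1 by DESeq2, CCNE2. Without that library it called CCNE2, against 1.56%.

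No interaction of the compounds was detectable for the 10 genes. Of the 15443 tested genes 0 were called by edgeR's quasi-likelihood test, which is 0% of them, and 413 (2.67%) had an unadjusted p under 0.05, of which 0 were members. DESeq2 called 2 genes and 0 members. The interaction was −0.0015 ± 0.0695 for CCNE2 with a 95% interval of −0.15 to 0.15, and −0.03 ± 0.0798 for RB1 with −0.20 to 0.14. For CDC25A it was 0.04 ± 0.0561 with an interval of −0.08 to 0.16, and for E2F1 0.06 ± 0.0770 with −0.11 to 0.23. For RB1, CDC25A and E2F1 the intervals hold departures as large as the averaged effect, so these were not detectable with 3 libraries per group, and for CCNE2 both bounds were smaller than its averaged XL413 effect of −0.19.

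The genes around the members were examined as 3 lists, all measured and tested in full. Of 30 E2F target genes of S phase entry, which encode replication licensing, helicase and nucleotide synthesis proteins, 12 were lower and 0 higher for the averaged GSK343 effect. Over all tested genes 6.55% were called for this effect. The median difference of the 30 was −0.10, against 0.0041 over all tested genes, and 1 of 30 was above 0. The number lower was 10 with upper quartile scaling and 7 to 12 when any 1 library other than GSK343+XL413 replicate 2 was left out. It was 19 without that library, where 12.9% of tested genes were called. The 6 with the smallest p were UHRF1, MCM4, MCM7, RRM2, MCM5 and MCM2, and these calls held without each library in turn. UHRF1, which guides maintenance DNA methylation, had 206 ± 11.6 CPM in libraries with GSK343 against 239 ± 12.7 in those without (SD, n = 6 each), a difference of −0.21 ± 0.0308 with an adjusted p of 0.00185. RRM2, a ribonucleotide reductase subunit, differed by −0.13 ± 0.0242 (adjusted p 0.00748), and the helicase subunit gene MCM2 by −0.17 ± 0.0337 (adjusted p 0.0110).

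For the averaged XL413 effect the same 30 genes gave 9 higher and 2 lower, against 9.12% of all tested genes called. The median of the 30 was 0.03, against −0.0060 over all tested genes. The number higher was 8 to 13 when 1 library was left out, with 13 without GSK343+XL413 replicate 2, where 13.8% of tested genes were called. The number lower was 0 or 1 without any other 1 library. Those named first, all higher and among the smallest p, were MCM3, MCM4, MCM7, SLBP and DSCC1, and these calls held without each library in turn. MCM3, a helicase subunit, had 209.6 ± 12.1 CPM with XL413 and 174 ± 7.30 without (SD, n = 6 each), a difference of 0.27 ± 0.0269 with an adjusted p of 0.000150. SLBP, which binds histone mRNA, differed by 0.20 ± 0.0387 (adjusted p 0.0109). MCM4 and MCM7 were called higher with XL413 and lower with GSK343. RRM2 and UHRF1, the 2 called lower with XL413, were also called lower with GSK343. Their averaged XL413 effects were −0.09 and −0.12, called in 1 and 5 of the 12 fits with 1 library left out.

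**Figure D5:**
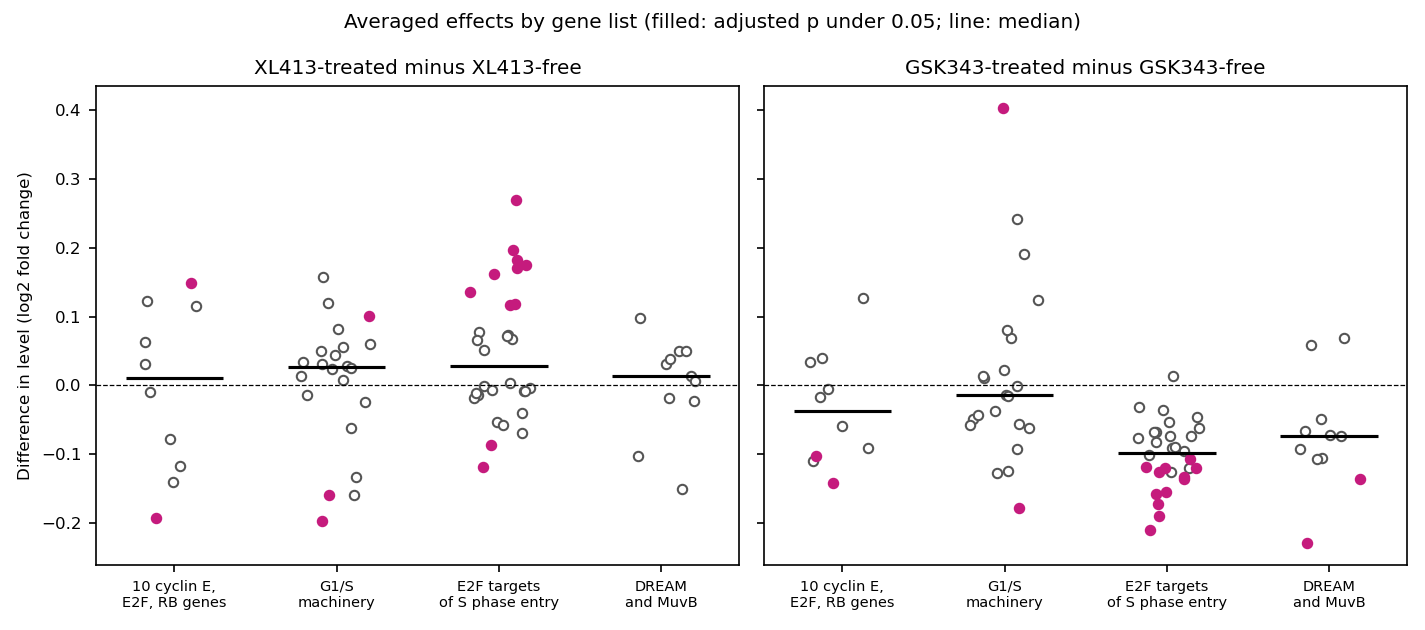
Averaged XL413 effect (left) and averaged GSK343 effect (right) as log2 fold changes (vertical axis), 1 point per gene, for the 10 members and the 3 lists, with a line at each median. Filled points had an adjusted p under 0.05. With GSK343, 29 of 30 E2F target genes lie below 0, and with XL413 the called E2F targets lie on both sides, 9 above and 2 below.

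The single comparisons of the E2F target list share controls and are given side by side. The combination against DMSO called 1 of the 30 higher and 6 lower with a median of −0.08, against 13.9% of all tested genes called. XL413 against DMSO called MCM3 higher with a median of 0.02, against 0.427% of all tested genes. GSK343 against DMSO called 4 lower, UHRF1, MCM7, RRM2 and MCM4, against 1.17%, with a median of −0.12 and 0 of 30 above 0. The 6 with the smallest p for the combination were UHRF1, RRM2, EZH2, CDC6 and UNG, lower, and MCM3, higher. The 4 calls for GSK343 became 14 without GSK343+XL413 replicate 2 and 0 to 3 without any other 1 library, with 0 among others without DMSO replicate 1, and 1 with upper quartile scaling or with no filter. The 6 lower for the combination became 2 without DMSO replicate 1 and with upper quartile scaling. Against XL413 alone the combination called 0 of the list by edgeR, against 0.784% of all tested genes, and 4 by DESeq2. There 15 of the 30 had an unadjusted p under 0.05, against 15% of all tested genes. Against GSK343 alone the combination called MCM3 and MCM7 higher, against 0.984% of all tested genes. The MCM7 call there was lost without each of 11 libraries, and without GSK343+XL413 replicate 2 the list had 6 higher.

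Of 22 other genes of the G1/S machinery (cyclins, kinases, inhibitors and further E2F and RB family genes), 3 were called for the averaged XL413 effect, against 9.12% of all tested genes. CCND1, the cyclin D1 gene, had 546 ± 24.2 CPM with XL413 and 610.3 ± 18.6 without, a difference of −0.16 ± 0.0295 with an adjusted p of 0.00849. SKP2, which targets the CDK inhibitor p27 for degradation, had 62.9 ± 1.72 CPM with XL413 and 72.0 ± 3.09 without, a difference of −0.20 ± 0.0350 with an adjusted p of 0.00717. CDK2, the kinase partner of cyclin E, was higher by 0.10 ± 0.0252 (adjusted p 0.0285), a call lost without 7 of the 12 libraries taken singly, among them each DMSO library. The list's median was 0.03, against −0.0060 over all tested genes. With XL413 against DMSO 0 of the 22 were called, against 0.427% of all tested genes. Without GSK343+XL413 replicate 2, CCND1 and SKP2 were called lower there, against 4.85% of tested genes.

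For the averaged GSK343 effect 2 of these 22 genes were called, against 6.55% of all tested genes, and both calls held without each library in turn. CDKN1C, which encodes the CDK inhibitor p57, had 20.0 ± 2.19 CPM with GSK343 and 15.1 ± 0.891 without, a difference of 0.40 ± 0.0609 with an adjusted p of 0.00222. CCND3, the cyclin D3 gene, had 54.6 ± 2.18 CPM with GSK343 and 61.8 ± 0.853 without, a difference of −0.18 ± 0.0303 with an adjusted p of 0.00485. The same 2 genes were called with GSK343 against DMSO, against 1.17% of all tested genes. There CCND3 missed the threshold on leaving out any 1 of 10 libraries, DMSO among them, and CDKN1C on leaving out any 1 of 5. With the combination against DMSO 4 of the 22 were called, CCND1, CCND3, CDK6 and SKP2, all lower, against 13.9% of all tested genes. Leaving out a single library kept 1 to 4 of these 4, with 1 without DMSO replicate 3. The list's median averaged GSK343 effect was −0.01, against 0.0041 over all tested genes. Without GSK343+XL413 replicate 2, 2 of the 22 were higher and 3 lower for the averaged GSK343 effect, against 12.9% of tested genes called. In the same fit 2 were higher and 3 lower with GSK343 against DMSO, against 6.15%.

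Genes of the DREAM and MuvB complexes and their partners, which repress or activate cell cycle genes with RB relatives, B-MYB or FOXM1, numbered 11. Of these, 0 were called for the averaged XL413 effect, against 9.12% of all tested genes (0 at an unadjusted p under 0.05 and 0 by DESeq2). For the averaged GSK343 effect 2 were called, both lower, against 6.55% of all tested genes. MYBL2, the B-MYB gene and an E2F target, had 177 ± 4.26 CPM with GSK343 and 208 ± 3.94 without, a difference of −0.23 ± 0.0255 with an adjusted p of 0.000241 that held without each library in turn. FOXM1 differed by −0.14 ± 0.0349 (adjusted p 0.0362), a call lost without 8 of the 12 libraries taken singly. MYBL2 was also called lower with GSK343+XL413 against DMSO, at −0.25 ± 0.0361 (adjusted p 0.00147), and with GSK343+XL413 against XL413, at −0.25 ± 0.0361 (adjusted p 0.00522). With GSK343 against DMSO it was −0.21 ± 0.0360 (adjusted p 0.0139), a call lost without any 1 DMSO library and without GSK343 replicates 1 and 2 taken singly. RBL2, the third RB family gene, was not called in the averaged effects with all libraries, and without GSK343+XL413 replicate 2 its averaged GSK343 effect was 0.12 ± 0.0284 (adjusted p 0.0144). In that fit 1 of the 11 genes, RBL2, was called higher and 4 were called lower, against 12.9% of tested genes called.

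The genes whose levels ran most like those of the members over the 12 libraries were found among 12363 tested genes with a mean of at least 1 log2 CPM. E2F1 was most like DONSON, a replication fork gene (Pearson's r of log2 CPM 0.970, and 0.970 without GSK343+XL413 replicate 2). CCNE2 was most like MPP7 (r 0.961, and 0.977 without that library), the only pair besides E2F1 and DONSON that was also first over the 11 other libraries. RBL1 was most like DENND5A (r 0.962), E2F8 like SOCS7 (0.944), CDC25A like SARS (0.933), E2F7 like JMY (0.930) and RB1 like TMPRSS15 (0.926). CCNE1 was most like EFNA3 (0.910), E2F2 like TACC2 (0.900) and E2F3 like MAP3K7 (0.881). These are the highest of 12363 correlations each, over libraries that share their groups, and are given as a description.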

How the data were processed

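Poly-A RNA of A375 cells was sequenced with a dUTP strand-specific protocol, per the labels' protocols. The authors deposited expected counts per gene, for which the submitters' processing notes name RSEM 1.2.15, Bowtie2 2.1.0 and hg38. RSEM splits reads shared by similar or overlapping genes by estimate. An annotation or strand setting is not given in the sources used here. The 10 genes and the gene lists were chosen with earlier results of these data known.

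Expected counts were rounded to whole numbers. Genes passing filterByExpr (minimum count 10, minimum total 15) were kept, TMM scaling was applied, and the 12 libraries entered a single quasi-likelihood fit on the 4 groups in edgeR 4.0.16 (R 4.3.3). It gave 8 comparisons, two-sided, with Benjamini-Hochberg adjustment over all tested genes and intervals at 95%. The fit was also run on simulated counts with known changes. These changes were larger than those of the 10 genes, and no simulated library stood apart. That run therefore cannot show how well differences this small are found. Positions and transcript lengths came from GENCODE 29. Genes named beside the 10 are those of a list called in a comparison, or the 6 with the smallest p where more were called, and for each of the 10 the gene with the highest correlation. Some genes that this rule names are not reported here. RBL2 and the CCNE2 to CCNE1 ratio were chosen after their values were seen. Alternatives were RLE and upper quartile scaling, no filter, DESeq2 1.42.0, the replicate number as a term, only the groups compared, and leaving out each library.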

Additional observations from a re-analysis of the deposited data

How the results depend on the processing

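Of the log2 fold changes of the 10 genes under all alternatives, 1343 kept their side of the threshold, 51 lost a call, 16 gained one and 0 called values changed sign, whereas some uncalled values near 0 did. Most of the 1343 were uncalled values that stayed uncalled. Calls for the averaged XL413 effect were kept in 17 of 17 alternatives for CCNE2 and 8 of 17 for RB1. Those for the averaged GSK343 effect were kept in 3 of 17 for E2F1 and 3 of 17 for CDC25A. The CCNE2 call for GSK343+XL413 against DMSO was kept in 4 of 18. The number of the 10 genes called moved as follows. For GSK343+XL413 against DMSO it was 1, and 0 with no filter, with DESeq2 and with only the groups compared, while upper quartile scaling called RB1 in place of CCNE2. For XL413 against DMSO it was 0, and 3 with only the groups compared (CCNE2, RB1 and RBL1). For GSK343+XL413 against GSK343 it was 0, and 1 with DESeq2. For the averaged GSK343 effect it was 2, and 0 with upper quartile scaling and with no filter. When 1 library was left out it ranged from 0 to 4 for GSK343+XL413 against DMSO, 0 to 2 for XL413 against DMSO, 0 to 1 for GSK343 against DMSO, for GSK343+XL413 against XL413 and for GSK343+XL413 against GSK343, 1 to 3 for the averaged XL413 effect and 0 to 2 for the averaged GSK343 effect, and the highest of each came without GSK343+XL413 replicate 2. Genes called numbered 2152 for GSK343+XL413 against DMSO (657 with only the groups compared, 850 to 2610 with 1 library left out), 66 for XL413 against DMSO (245 with DESeq2, 1394 with only the groups compared, 16 to 756) and 180 for GSK343 against DMSO (338, 422, and 37 to 958). They numbered 121 for GSK343+XL413 against XL413 (294 with DESeq2, 18 with only the groups compared, 40 to 252), 152 for GSK343+XL413 against GSK343 (582, 0, and 35 to 348), 1408 for the averaged XL413 effect (523 to 2145), 1012 for the averaged GSK343 effect (448 to 2009) and 0 for the interaction (2 with DESeq2). The cause of these changes was not tested. With upper quartile scaling the called genes split into 1367 higher and 778 lower for GSK343+XL413 against DMSO, where TMM gave 1033 and 1119, into 43 and 14 for XL413 against DMSO (43 and 23), 136 and 31 for GSK343 against DMSO (112 and 68), 104 and 24 for GSK343+XL413 against XL413 (86 and 35; 85 and 55 with RLE) and 678 and 290 for the averaged GSK343 effect (491 and 521).

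The replicate numbers did not pair the libraries, since the correlation of same-numbered deviations was −0.277 to 0.408 with 6 of 18 over 0.1, and 10 of 36 differently numbered pairs were over 0.1. With the replicate number as a block, 0 of the 10 genes were called for GSK343+XL413 against DMSO and 0 for the averaged GSK343 effect, 2 were called for the averaged XL413 effect, and 108 genes in all were called for GSK343 against DMSO. The 4 calls of the E2F target list for GSK343 against DMSO also became 0.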
